A study of Mus musculus with 12 samples.

Results

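Olfactory and vomeronasal receptor genes were examined for DNA methylation in bone marrow progenitors of Dnmt1 mutant and wild-type mice. Their regions came from the authors' list of hypomethylated regions: those whose gene symbol starts with Olfr and a digit, with Vmn1r or with Vmn2r, and whose distance to that gene is 5000 bases or less. In all, 84 regions at 77 genes met this rule, of 35439 listed regions and of 107115 candidate regions with a methylation level. Of these, 67 regions lay at 61 olfactory receptor genes and 17 at 16 vomeronasal receptor genes, 3 of them at V1R and 14 at V2R genes. The list was itself made from the contrast of mutant with wild type on the same samples, so every difference between the genotypes at these regions is a description and carries no test.

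Both genotypes were on the BALB/c strain, and DNA came from lin- bone marrow progenitors, the marrow cells left after those with markers of mature blood lineages are removed. The controls are labelled wt and the mutants dnmt1-/-, although the series describes a missense mutation of the mouse enzyme designed after hypomorphic fish alleles. There were 12 libraries, 6 per genotype, and the values stand in 3 columns per genotype, each of whose names matches 1 library made with the TruSeq DNA Methylation kit and 1 made with the NEBNext Enzymatic Methyl-seq kit. Columns are called mutant 1 to 3 and wild type 1 to 3 here. No label used here says that equal numbers link a mutant column to a wild-type column. The sources used here give no age, sex or pooling of the animals, and no label states that the columns came from separate animals, so p-values measure only the spread between these samples. The identity of the cells could not be checked against marker expression, because only methylation was analysed here. No read counts accompany the levels, so their depth is unknown.

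Dnmt1 copies methylation from the old to the new DNA strand after replication, at cytosines followed by guanine (CpGs), and mutations that weaken it lower methylation as cells divide. Olfactory receptors are the G protein-coupled receptors with which neurons of the nose detect odorants, and vomeronasal receptors of the V1R and V2R families detect pheromones and related cues in the vomeronasal organ. They form some of the largest gene families of the mouse, lie in tandem clusters, have promoters with few CpGs and are silent in nearly all other tissues, blood cells included, while each sensory neuron expresses a single receptor or very few.

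The annotated starts of receptor genes held few CpGs that a region could contain. In RefSeq windows of 300 bases, from 250 before to 50 after the gene start (GRCm38.p6), the 1272 windows of receptor genes had a median of 1 CpG, 31.0% had none and 0.236% had 10 or more. Over all 32851 windows of the table the median was 7 CpGs, 5.43% had none and 43.5% had 10 or more. The 59 member genes with a window had a median of 2 CpGs. In 76.2% of the receptor windows the start codon ATG stood at the annotated start, against 5.83% of all windows, so many of these models begin at the coding sequence and the window need not hold the promoter.

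**Figure D1:**
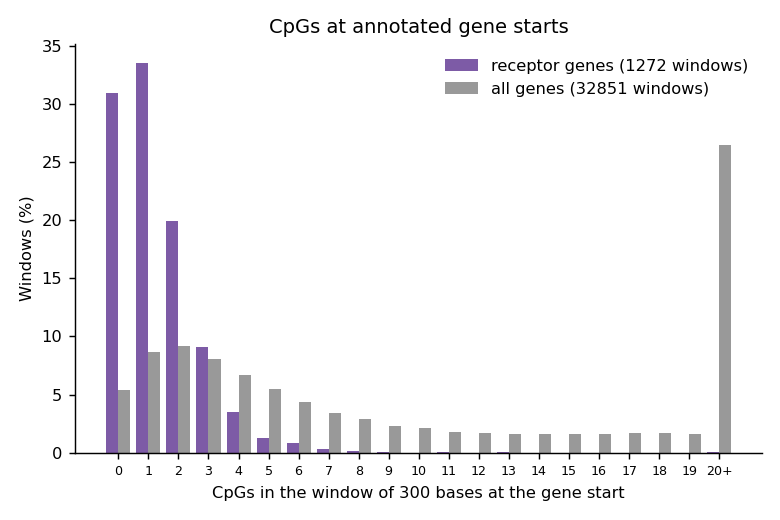
CpGs per window of 300 bases at annotated gene starts, as a percentage of windows on the y axis, for receptor genes and for all genes of the table; the last pair of bars pools 20 or more CpGs. Receptor windows pile up at 0 to 2 CpGs, whereas 43.5% of all windows have 10 or more.

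At the 59 genes with a window, only 6 regions reached the window of their own gene, and the sequences of the 5 with the largest loss are shown because in these windows CpGs of an annotated start lay in a listed region. The regions of Olfr30 and Olfr370 cover the RefSeq start of the gene, whereas the CpGs of the Olfr12 region begin 7 bases and those of the Olfr223 region 38 bases after it. At Olfr1349 the window belongs to a start inside the gene span, and the CpGs of the region begin 4290 bases after the start of that span. Regions at Olfr658 and Olfr240-ps1 also cover the RefSeq start. They are read 5′ to 3′ on the strand of the gene, from RefSeq, and capitals mark the CpGs that lie inside the region. The windows are chr1:92619631-92619930 on the plus strand for Olfr12, chr11:58455931-58456230 on the minus strand for Olfr30, chr11:59590038-59590337 on the minus strand for Olfr223, chr8:83540843-83541142 on the plus strand for Olfr370 and chr7:6515378-6515677 on the minus strand for Olfr1349.
Olfr12: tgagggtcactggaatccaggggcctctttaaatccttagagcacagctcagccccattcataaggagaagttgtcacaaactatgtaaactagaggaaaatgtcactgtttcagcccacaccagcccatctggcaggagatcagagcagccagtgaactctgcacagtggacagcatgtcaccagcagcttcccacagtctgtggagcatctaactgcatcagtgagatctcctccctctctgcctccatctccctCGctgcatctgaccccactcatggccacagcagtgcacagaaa
Olfr30: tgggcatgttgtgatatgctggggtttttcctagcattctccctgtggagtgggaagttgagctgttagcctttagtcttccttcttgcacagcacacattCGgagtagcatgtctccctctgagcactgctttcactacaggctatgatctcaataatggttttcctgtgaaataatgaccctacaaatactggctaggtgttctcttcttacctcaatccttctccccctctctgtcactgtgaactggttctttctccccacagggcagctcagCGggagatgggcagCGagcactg
Olfr223: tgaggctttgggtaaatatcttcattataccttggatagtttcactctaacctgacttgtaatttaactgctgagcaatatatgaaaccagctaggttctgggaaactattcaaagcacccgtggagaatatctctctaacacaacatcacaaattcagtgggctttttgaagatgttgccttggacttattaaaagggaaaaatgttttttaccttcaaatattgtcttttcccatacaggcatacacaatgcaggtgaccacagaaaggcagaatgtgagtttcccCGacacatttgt
Olfr370: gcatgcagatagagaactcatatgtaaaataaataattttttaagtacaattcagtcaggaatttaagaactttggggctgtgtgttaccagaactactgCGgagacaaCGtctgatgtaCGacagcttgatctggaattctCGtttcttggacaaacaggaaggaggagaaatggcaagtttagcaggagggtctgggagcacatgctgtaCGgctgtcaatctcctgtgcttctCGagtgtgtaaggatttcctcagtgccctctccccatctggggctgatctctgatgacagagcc
Olfr1349: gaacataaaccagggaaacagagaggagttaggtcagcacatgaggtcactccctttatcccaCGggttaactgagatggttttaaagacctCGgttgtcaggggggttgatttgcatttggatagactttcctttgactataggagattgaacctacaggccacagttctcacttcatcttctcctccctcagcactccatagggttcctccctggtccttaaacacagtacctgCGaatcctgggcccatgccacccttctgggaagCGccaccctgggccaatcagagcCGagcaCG
The windows of Olfr370 and Olfr1349 each hold 6 CpGs, all within their region, and that of Olfr30 holds 3, again all within it. The window of Olfr12 has a single CpG, and that of Olfr223 has 2, of which 1 lies in the region. The homeodomain core TAATTA, searched on both strands, occurs in 13.6% of the windows of member genes (8 of 59), in 16.6% of all receptor windows and in 5.29% of all windows. The core holds only A and T, and the windows differ in base composition. The median share of G and C was 42.3% in member, 35.7% in receptor and 52.7% in all windows. Whether the core is more frequent than this composition gives was not tested. A second motif that was searched went the other way, with 0 of 59 member windows, 0.393% of receptor windows and 0.904% of all windows.

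In these 5 regions the mutant was lower by between 21.7 and 28.6 percentage points. At Olfr12 (chr1:92619886-92620804, 14 CpGs) the mutant columns were at 44.2%, 49.7% and 60.2% and the wild-type columns at 82.6%, 80.3% and 77%, a loss of 28.6 points. At Olfr30 (chr11:58455015-58456494, 24 CpGs) they were at 49.9%, 56.7% and 55.1% and at 80.2%, 78.2% and 82.7%. Mutant 3 was the highest mutant column at Olfr12 and mutant 1 the lowest at both, and at neither did a mutant column reach the wild-type columns. At Olfr223 (chr11:59589231-59590047) the mutant columns were at 55%, 60% and 56.9% and the wild-type columns at 83.4%, 84.5% and 81.2%. At Olfr370 (chr8:83540941-83541992) the levels were 51.8%, 54.9% and 57.5% against 79.8%, 79.8% and 80.8%. At Olfr1349 (chr7:6514476-6516063, with 43 CpGs the region with the most CpGs among the 84) the levels were 58.4%, 59.5% and 62.8% against 81.7%, 83.2% and 80.8%, a loss of 21.7 points. At these 3 genes the mutant columns lay close together and below all wild-type columns. The sixth region that reached its window, at Olfr156 (chr4:43820901-43821598), was at 72.7%, 58.6% and 71.4% against 86.8%, 87.8% and 90.7%, with mutant 2 well below the other mutant columns.

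Receptor regions as a group were highly methylated in the wild type and partly methylated in the mutant. Averaged over the 84 regions, the mutant columns were at 50.5%, 50.7% and 53.8% and the wild-type columns at 79.8%, 80.5% and 80.3%, which gives a mutant mean of 51.7% ± 1.82 and a wild-type mean of 80.2% ± 0.397 (SD, n = 3 each). Mutant 3 was the highest mutant column, the wild-type columns were nearly level, and the genotypes did not overlap. The same means over all listed regions were 46.1%, 48.4% and 50.7% for the mutant columns and 76.4%, 76.9% and 77.1% for the wild-type columns. Receptor regions thus stood above the whole list in every column, by 2.29 to 4.38 points among mutant and by 3.28 to 3.64 points among wild-type columns. The median difference of a receptor region was -27.0 points, with a range from -47.2 to -20.4, beside a median of -26.1 over all listed regions. As a share of the wild-type level the median loss was 34.0%, beside 34.1% for the whole list.

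**Figure D2:**
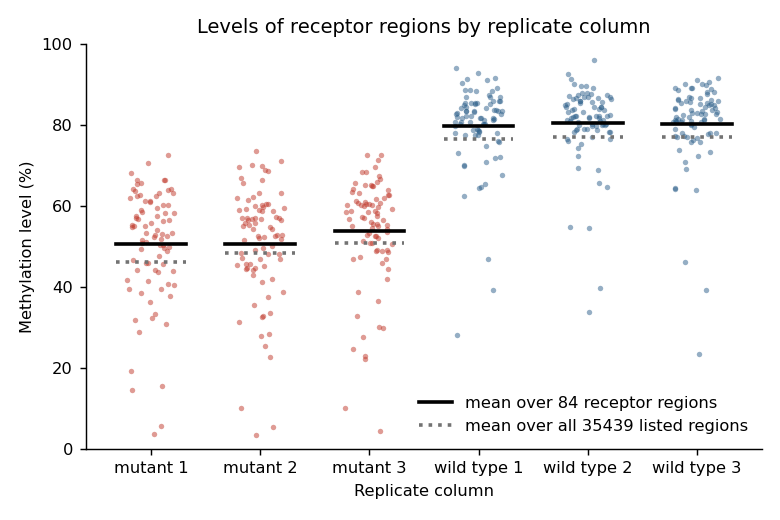
Methylation level in percent of each of the 84 receptor regions (points) in the 3 mutant and 3 wild-type columns, with the mean over receptor regions (solid bar) and over all 35439 listed regions (dotted bar). The solid bar lies above the dotted one in every column, and the mutant columns lie far below the wild-type columns.

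All 84 regions were called lower in the mutant by limma with Benjamini-Hochberg adjustment over all candidate regions, where 93.5% of candidate regions were called lower and 0.0485% higher. In all 84, every mutant column also lay below every wild-type column, as in 94.3% of candidate regions. Since the rule used this contrast, nothing is read from either count. None of the receptor genes appeared in the authors' list of hypermethylated regions. The distance between the lowest wild-type and the highest mutant column ranged from 7.55 points at Olfr1419 to 39.8 points at Olfr286. Mutant 1 was the lowest mutant column in 39 receptor regions (46.4%), mutant 2 in 37 (44.0%) and mutant 3 in 8 (9.52%). Over all listed regions those shares were 56.4%, 29.0% and 14.6%, a difference that was not tested.

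**Figure D3:**
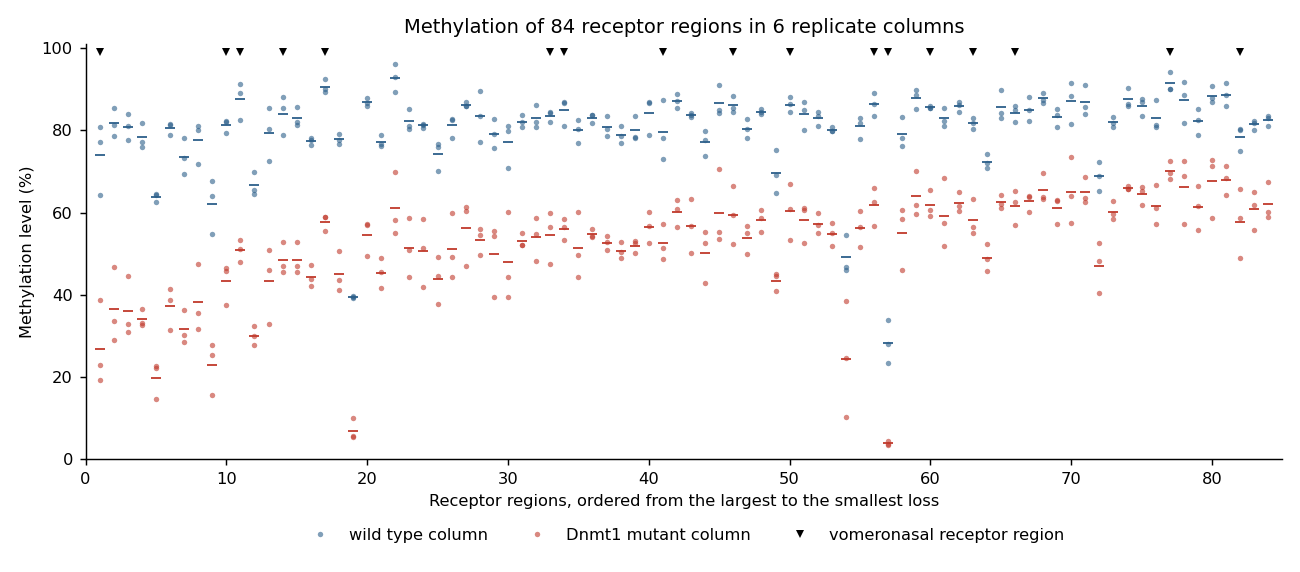
Methylation level in percent of the 84 receptor regions, ordered from the largest to the smallest loss, with a point for each of 3 wild-type (blue) and 3 mutant (red) columns, a dash for each genotype's mean and a triangle over vomeronasal receptor regions. Wild-type points lie mostly near 80%, and the few low ones, down to 23.3%, belong to regions at Vmn2r-ps56, Olfr658 and Olfr1419.

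The largest losses at olfactory receptor genes lay upstream of, downstream of or inside the genes. Upstream of Olfr503 (chr7:108542508-108543110, 14 CpGs) the mutant columns were at 28.9%, 33.6% and 46.8% and the wild-type columns at 85.3%, 78.7% and 81.4%, a loss of 45.3 points. Upstream of Olfr538 (chr7:140569949-140570524) they were at 30.9%, 44.6% and 32.9% and 77.6%, 84% and 81%. Upstream of Olfr62 (chr4:118662028-118662600) the levels were 33.2%, 32.6% and 36.6% against 75.9%, 77.1% and 81.9%, a loss of 44.2 points. The mutant columns of Olfr62 were among the closest of the large losses, whereas mutant 3 stood well above the others at Olfr503 and mutant 2 at Olfr538. Within Olfr222 (chr11:59571024-59571443, 20 CpGs) the mutant columns were at 41.4%, 31.4% and 38.7% and the wild-type columns at 81.6%, 78.8% and 81.4%. Within Olfr15 (chr16:3839354-3839833) they were at 36.2%, 28.4% and 30.1% and 78.1%, 69.3% and 73.2%. Both regions lie inside a short gene span, and at each of them the genotypes were far apart, with 37.4 and 33.1 points between their nearest columns. Losses of 40 points or more were found at 7 receptor regions (8.33%), beside 8.55% of all listed regions.

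Of the 3 regions with the lowest wild-type levels, 2 were almost unmethylated in the mutant. At Olfr658 (chr7:104646791-104647409), a gene of the class I olfactory receptor cluster of chromosome 7, the mutant columns were at 5.56%, 5.33% and 10% and the wild-type columns at 39.2%, 39.8% and 39.3%, a loss of 32.5 points or 82.3% of the wild-type level. Downstream of the V2R pseudogene Vmn2r-ps56 (chr7:41739924-41740292) they were at 3.75%, 3.50% and 4.50% and 28%, 33.8% and 23.3%, a relative loss of 86.2%. Downstream of Olfr1419 (chr19:11868609-11868888) the mutant columns were at 38.5%, 10.2% and 24.5% and the wild-type columns at 46.8%, 54.6% and 46.1%. At Olfr658 and Vmn2r-ps56 all mutant columns were at 10% or below, while at Olfr1419 the mutant columns were the most scattered of the 84 regions, over 28.4 points. These are the 3 receptor regions with a wild-type mean under 60% (3.57%, beside 10.6% of all listed regions), and 57 regions had a wild-type mean of 80% or more (67.9%, beside 51.2%).

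At the other end, the 2 receptor regions with the highest wild-type means kept most of that level in the mutant, as the median region of the 84 also did. In a region within Olfr281 (chr15:98456366-98456540) the wild-type columns were at 92.9%, 96.1% and 89.2% and the mutant columns at 58.2%, 69.8% and 55.1%. Upstream of Vmn2r82 (chr10:79354701-79355549), a V2R gene, they were at 94.1%, 90.1% and 90.1% and at 68.1%, 69.6% and 72.5%. The loss was 31.7 points at the first and 21.4 points at the second, with mutant 2 the highest mutant column at Olfr281 and mutant 3 at Vmn2r82. The smallest losses, next to the limit of 20 points that all listed differences meet, were at Olfr1314 (20.4 points), at 1 of 3 regions of Olfr1414 (20.5 points), at Vmn2r-ps21 (20.6 points) and at 1 of 3 regions of Olfr240-ps1 (20.7 points). Downstream of Olfr1314 (chr2:112088860-112089213) the mutant columns were at 60.2%, 58.9% and 67.4% and the wild-type columns at 83.6%, 81.1% and 83.1%. Within Vmn2r-ps21 (chr5:108880225-108880656) they were at 65.7%, 58.7% and 49% and 74.9%, 80.3% and 80%. The mutant columns of Vmn2r-ps21 spread more than those of Olfr1314, and at neither did the genotypes overlap. The widest mutant spreads after Olfr1419 were within Olfr214 (chr6:116556586-116556751), at 39.6%, 44.2% and 60.2% against 70.8%, 79.8% and 81.1%, and downstream of Vmn2r107. Across the 84 regions the Spearman correlation of the wild-type level with the loss was -0.37, a description over regions that share the same columns and of measures that share the wild-type values.

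Vomeronasal receptor regions had levels close to those of olfactory receptor regions. Over the 17 vomeronasal regions the mutant columns were at 51.9%, 51.8% and 52.5% and the wild-type columns at 79.3%, 82.2% and 80.96%. Over the 67 olfactory regions they were at 50.2%, 50.4% and 54.1% and at 79.9%, 80.1% and 80.2%. The median difference was -26.7 points at vomeronasal and -27.1 points at olfactory receptor regions. Mutant 3 stood above the other mutant columns over the olfactory regions and much less so over the vomeronasal ones. The difference between the families was not tested, since both were chosen by the same contrast.

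The largest loss of all 84 was at a V2R gene, the family whose proteins carry a long extracellular domain that binds peptide cues. Downstream of Vmn2r107 (chr17:20378898-20379008, 14 CpGs) the mutant columns were at 19.2%, 38.6% and 22.8% and the wild-type columns at 64.3%, 80.7% and 77.2%, a loss of 47.2 points. This is also the region with the most CpGs per length, 127 per kb. Mutant 2 was far above the other mutant columns and wild type 1 far below the other wild-type columns, yet the nearest columns of the genotypes were 25.7 points apart. Upstream of Vmn2r91 (chr17:18082171-18082589) the levels were 51.1%, 48% and 53.4% against 91.2%, 89.2% and 82.4%. Upstream of the pseudogene Vmn2r-ps124 (chr17:19932071-19932384) they were 52.9%, 45.6% and 47% against 78.8%, 85.3% and 88.1%, and downstream of Vmn2r99 (chr17:19398875-19399199) 58.9%, 58.9% and 55.6% against 89.2%, 92.6% and 90.1%. These 4 regions lie in a single cluster on chromosome 17, and Vmn2r99 had the tightest mutant columns of the 4. The region with the most CpGs at a V2R gene, downstream of Vmn2r112 (chr17:22621109-22623295, 34 CpGs), had mutant columns at 56.4%, 54.9% and 63.2% and wild-type columns at 80.2%, 81.8% and 83.1%.

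V1R genes, which encode receptors with a short extracellular end for small molecules, had 3 regions. Downstream of the pseudogene Vmn1r-ps58 (chr7:11971968-11972318) the mutant columns were at 46.5%, 37.5% and 45.8% and the wild-type columns at 82.1%, 82.2% and 79.5%. Within Vmn1r65 (chr7:6010361-6010660) they were at 47.6%, 59.8% and 56.6% and 84.2%, 82.1% and 84.3%. In a region that the authors place upstream of Vmn1r5 but that lies within its RefSeq span (chr6:56982040-56982324) they were at 62.6%, 56.9% and 65.2% and 85.9%, 82.1% and 84.9%. All 3 were highly methylated in every wild-type column, and the loss was 37.9 points at Vmn1r-ps58, 28.9 at Vmn1r65 and 22.7 at Vmn1r5. Regions at the 10 genes with a pseudogene name, 12 in number over all families, had a median difference of -26.9 points.

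By position, 48 regions overlapped the gene (57.1%), 17 lay upstream and 19 downstream. Of all listed regions, at any distance from a gene, 65.8% overlapped one. These shares cannot be compared directly. The rule left out 60 of 144 receptor rows for their distance, none of which overlapped its gene, and no such limit was put on the whole list. Of the olfactory receptor regions 43 overlapped the gene, whereas of the vomeronasal ones 5 did and 6 each lay upstream and downstream. Many receptor genes are a single short coding exon, and 27 regions started within 600 bases after the RefSeq gene start, whereas 5 covered that start. In the 31 overlapping regions at genes with a RefSeq span under 1200 bases, a median of 54.6% of the gene lay in the region, and 2 of the 31 held none of it. Sides are those of the authors' gene models: of all 48 overlapping regions, 4 lay outside the shorter RefSeq span, and of those placed upstream or downstream, 1 lay within it, at Vmn1r5. The 4 include the regions at Olfr56 and Vmn2r7, at -31013 and -85207 bases from the RefSeq gene start. The median difference was -26.9 points in overlapping, -30.1 points in upstream and -24.8 points in downstream regions. Averaged over regions, the mutant columns were at 51.8%, 52.9% and 55.4% in overlapping, 48.9%, 50.2% and 52.5% in upstream and 48.7%, 45.5% and 50.8% in downstream regions. The wild-type columns were at 80.9%, 80.9% and 80.7% in overlapping, 80.9%, 83.1% and 82.7% in upstream and 75.8%, 77.5% and 77.4% in downstream regions. The mutant columns of upstream regions overlapped those of both other positions, those of overlapping regions lay above those of downstream regions, and the order of the positions was not tested.

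**Figure D4:**
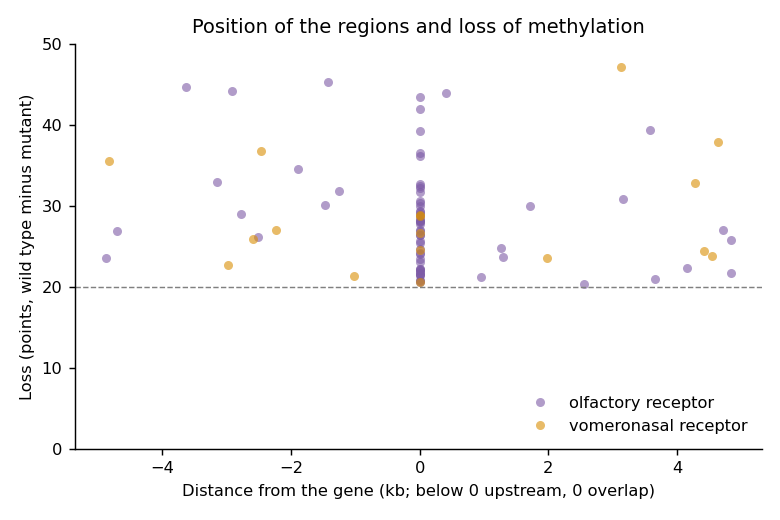
Loss in percentage points (wild type minus mutant) against the distance of each of the 84 regions from its gene in kb, for olfactory and vomeronasal receptors. Distances are negative upstream and 0 where the region and the authors' gene model overlap. The dashed line marks 20 points. Losses above 40 points occur upstream, downstream and within genes.

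The limit of 5000 bases left out 60 of 144 rows that name a receptor gene. The member nearest to it on the inside was the region upstream of Olfr1315-ps1, at -4869 bases (chr2:112116124-112116519), with the mutant at 60.3%, 61.6% and 65% and the wild type at 87%, 84.3% and 86.2%. The nearest outside were upstream of Vmn2r104 at -5119 bases, at 55.2%, 53.4% and 77.5% against 85.2%, 84.1% and 88.2%, and downstream of Olfr200-ps1 at 5149 bases, at 58.6%, 54.8% and 42.9% against 81.8%, 81.2% and 87.6%. Mutant 3 was far above the other mutant columns at Vmn2r104 and the lowest at Olfr200-ps1. For 3 of the 84 regions the authors' rows also name a gene of no receptor family, Gm26939, Gm20715 or Gm20629, and the region at Olfr524 also overlaps the protein-coding gene Cd163l1. Some regions also overlap other RefSeq genes that code for no protein. Among named regions these are the pseudogene Usp17le-ps at Olfr658, the pseudogene Gm3836 at Vmn1r-ps58 and the long noncoding RNA gene Gm33909 at Olfr288.

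Receptor regions were short and comparatively dense in CpGs. Their median length was 551 bases, beside 720 over all listed regions, and their median density 24.4 CpGs per kb, beside 17.8. Both sets had a median of 12 CpGs. The minimum that listed regions share, 10 CpGs, was met exactly by 29 receptor regions (34.5%, beside 38.3%). Besides Olfr1349, the regions with the most CpGs were within Olfr1344 (chr7:6440065-6440877, 34 CpGs), at 52.4%, 45.7% and 48.6% against 72%, 74.3% and 70.8%, and downstream of Vmn2r112. The authors' metilene q-value was under 0.05 at 15 receptor regions (17.9%, beside 23.3% of the list). CpG density and loss had a Spearman correlation of 0.03 over the 84 regions, which share the same columns.

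Most receptor genes had no candidate region at all. Of 2073 receptor genes in RefSeq, 173 (8.35%) had a candidate region within the gene or 5 kb on either side: 128 of 1428 olfactory (8.96%), 13 of 373 V1R (3.49%) and 32 of 272 V2R genes (11.8%). A listed region lay in that window at 87 (4.20%). Of 20422 other protein-coding genes, 68.8% had a candidate region and 45.0% a listed one, over spans with a median of 19058 bases against 945 bases for receptor genes, a difference in length that these shares include. Among receptor genes, 4.57% of the protein-coding ones and 1.65% of the pseudogenes had a member region. A member region counts only for the gene that the authors' row names. By position alone, a listed region lay in the window at 68 of 1465 protein-coding receptor genes and at 19 of 607 pseudogenes. Of the 148 V2R pseudogenes, 12 had a listed region in the window but only 4 had a member region.

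At those genes there were 197 candidate regions, of which 91 were listed (46.2%), beside 33.1% of all candidate regions. The difference between these shares was not tested. Being listed rests on the contrast of the genotypes, and the regions share the same columns and often the same cluster. Of these 91, 79 are among the 84 regions described, and the other 5 of the 84 lie further than 5 kb from the RefSeq span of any receptor gene. The region at Vmn2r7 counts among the 79 through the span of Vmn2r-ps11, since it too lies further than 5 kb from its own gene. With Benjamini-Hochberg adjustment, limma called 187 of the 197 lower (94.9%, beside 93.5% of all candidate regions), none higher and 10 neither way, and no candidate region at a receptor gene had a higher mean in the mutant. The 106 that were not listed had a median difference of -14.1 points and a median wild-type level of 88.3%, beside -13.5 points and 89.4% for all candidate regions not listed. Candidate regions were also chosen by the authors on these samples.

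Among unlisted candidate regions the largest losses were of the size of the smallest in the list. At Olfr753-ps1 (chr17:37164342-37164748) the mutant columns were at 65.3%, 55.1% and 64.6% and the wild-type columns at 78.9%, 86.8% and 82.6%, a loss of 21.1 points. The losses were 20.5 points at Olfr1166 (chr2:88122930-88123233) and 20.3 points at Olfr1447 (chr19:12898985-12899256). The smallest differences were at V2R genes. At Vmn2r-ps18 (chr4:147124885-147124980) the mutant columns were at 1.89%, 1.33% and 2.56% and the wild-type columns at 2.89%, 1.33% and 1.78%, and limma gave an adjusted p of 0.973. At Vmn2r87 (chr10:130470377-130470488) they were at 0%, 0.455% and 0.455% and 1.09%, 3.91% and 9.45% (limma adjusted p = 0.118). At Vmn2r-ps111 (chr14:51435130-51435378) they were at 91.7%, 90.5% and 93.8% and 96.8%, 94.7% and 94.8% (limma adjusted p = 0.139). Vmn2r-ps18 and Vmn2r87 were almost unmethylated in both genotypes and Vmn2r-ps111 almost fully methylated in both, although at Vmn2r87 and Vmn2r-ps111 every mutant column was still below every wild-type column.

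Member regions were unevenly spread over the clusters in which receptor genes lie. Receptor genes less than 1 Mb apart formed 111 clusters, 33 of which held a member region, and members lay on 17 chromosomes. Within 500 kb of a member gene there was a median of 18 other receptor genes (n = 77), beside 28 for all 2073 receptor genes, and 22.1% of member genes had 30 or more such neighbours, beside 47.2%. The 4 clusters of 100 or more genes held 16 regions for 701 genes (2.28 per 100 genes). The 20 clusters of 20 to 99 genes held 35 regions for 1037 genes (3.38 per 100), and the 87 smaller ones 33 regions for 335 genes (9.85 per 100). Of those 33 regions, 10 lie in the cluster of 12 genes on chromosome 15. Counted by genes with a member region, the shares were 2.28%, 3.38% and 7.76%. The same spans were also thin in listed regions of any gene: clusters of 10 or more receptor genes held 4.83 listed regions per Mb, beside 14.7 per Mb over the autosomes.

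**Figure D5:**
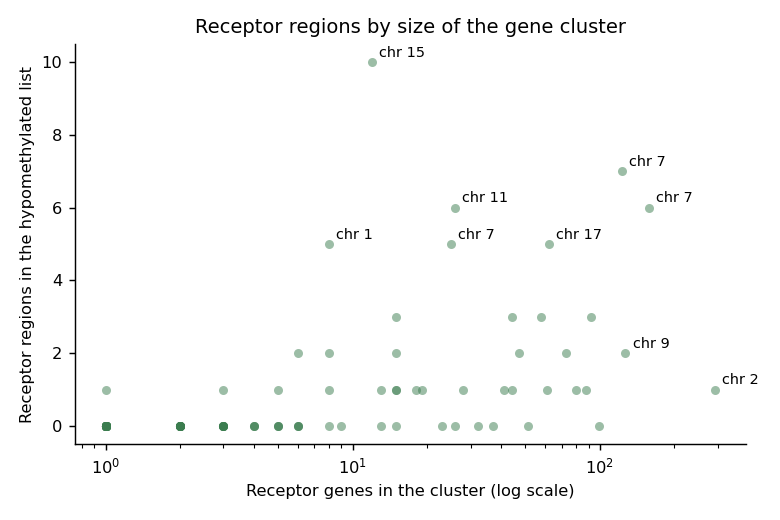
Number of receptor regions in the hypomethylated list against the number of receptor genes in the cluster (log scale), with 1 point per cluster and labels on the clusters with 5 or more regions or 100 or more genes. The cluster of 12 genes on chromosome 15 has 10 regions and that of 293 genes on chromosome 2 has 1.

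The cluster with the most regions, chr15:98186011-98499471, has 12 olfactory receptor genes and 10 regions at 6 of them, with losses from 20.7 to 43.96 points. Next to the end of Olfr286 (chr15:98225616-98226271, 18 CpGs) the mutant columns were at 14.6%, 22.7% and 22.2% and the wild-type columns at 62.5%, 64.6% and 64.3%, whereas in a second region within Olfr286 (chr15:98227259-98228290) they were at 49.7%, 55.9% and 54.6% and 83.4%, 89.6% and 77.2%. The first region was below the second in every column of both genotypes. Downstream of Olfr288 (chr15:98181963-98182426) the levels were 31.8%, 35.6% and 47.4% against 71.8%, 80% and 81%. The pseudogene Olfr240-ps1 had 3 regions by the authors' gene models. Only the first of them reaches its RefSeq span, and the third overlaps the RefSeq span of another receptor pseudogene, Olfr280-ps1. In the order of position, the mutant columns of the 3 regions were at 64.2%, 71.2% and 68.4%, at 52.6%, 42.9% and 55.2% and at 46%, 32.9% and 50.8%. The wild-type columns of the same regions were at 88.6%, 85.9% and 91.5%, at 77.6%, 79.9% and 73.8% and at 80.3%, 72.4% and 85.4%. Mutant 2 was the highest mutant column in the first of these regions and the lowest in the other two. Within Olfr279 (chr15:98497606-98498276, 33 CpGs) the mutant columns, at 66.4%, 65.7% and 65.8%, were the closest of all 84 regions, against 90.3%, 85.9% and 86.4% in the wild type.

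The other gene with 3 regions was Olfr1414, in a cluster of 8 genes on chromosome 1 that had 5 regions. Its upstream regions (chr1:92520402-92521359 and chr1:92521660-92522412) were at 45.5%, 46.9% and 52.9% and at 43.9%, 47.2% and 42.1% in the mutant, and at 81.4%, 85.6% and 82.1% and at 77.6%, 78.2% and 76.3% in the wild type. The region overlapping the gene (chr1:92510380-92511776) was at 55.7%, 61.9% and 65% against 81.9%, 82.2% and 80.1%. The loss was larger in the upstream regions, at 34.6 and 33 points, than in the overlapping one, at 20.5 points, and every mutant column was higher in the overlapping region.

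In the largest cluster, chr2:85330967-90401674 with 293 olfactory receptor genes, the only member region was downstream of Olfr1254 (chr2:89787063-89787451), where the mutant columns were at 57.1%, 68.8% and 72.6% and the wild-type columns at 91.7%, 81.8% and 88.6%. That cluster held 8 candidate regions of any gene and 2 listed ones. Mutant 1 was well below the other mutant columns there, and mutant 3 was 9.22 points below the lowest wild-type column. The class I cluster on chromosome 7 (chr7:102476773-105369317, 158 genes), which encodes the receptors most like those of fish and surrounds the beta-globin genes, had 6 regions. They lay at Olfr544, which responds to azelaic acid, at Olfr78, which responds to short-chain fatty acids and is also expressed outside the nose, and at Olfr552, Olfr605, Olfr650-ps1 and Olfr658. At Olfr544 (chr7:102484228-102485168) the levels were 50.8%, 52.7% and 54.4% against 78.7%, 80.3% and 83.4%, and at Olfr78 (chr7:102742509-102743250) 62.5%, 68.6% and 63.5% against 91.1%, 83.9% and 85.7%. Losses in this cluster ran from 21.5 to 32.5 points, the last at Olfr658. The cluster of 99 V1R genes at chr7:20101158-24055691 had no member region, and neither did 7 other clusters of 10 or more genes.

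Other genes of smell and pheromone detection were counted in the same way. Of 60 such genes, 41 (68.3%, beside 68.8% of other protein-coding genes) had a candidate region within the gene or 5 kb on either side, and 24 (40%, beside 45.0%) had a listed region. Of their 310 candidate regions, 284 were called lower by limma with Benjamini-Hochberg adjustment (91.6%, beside 93.5% of all candidate regions), at 39 genes, and none was called higher. Among other receptors 7 of 20 genes had a candidate region and 3 a listed one. The trace amine receptor gene Taar9 had a mutant level of 52.6% ± 4.07 and a wild-type level of 82.6% ± 4.14, and Gucy2d, a guanylyl cyclase receptor of olfactory neurons, levels of 49.1% ± 3.10 and 76.8% ± 1.05 (SD, n = 3 each). Both were lower in all 3 mutant columns. Each level is that of the region with the largest loss, of 2 listed at Taar9 and of 2 at Gucy2d. These genes were named because they had the largest losses among the other receptors.

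Among 15 signalling genes, 14 had a candidate region called lower and 11 (73.3%) a listed region, and 134 of their 137 candidate regions (97.8%) were called lower. Gnal, the G protein subunit through which olfactory receptors signal, was at 51.7% ± 6.59 against 88.2% ± 1.05, and Ano2, the chloride channel that amplifies the odour response, at 32.4% ± 9.30 against 67.7% ± 1.07. Of the 3 trafficking genes, which help receptors to the cell surface, Reep1 had a listed region, at 27.7% ± 1.04 against 63.1% ± 5.24. Among 17 genes of receptor choice and nuclear organisation 12 had a region called lower and 6 (35.3%) a listed one, and 83 of 99 candidate regions (83.8%) were called lower. Ebf3 was at 10.96% ± 0.559 against 61.9% ± 4.04 and Ebf1, which is also a B cell factor, at 28.6% ± 0.962 against 74.9% ± 6.49. Of 5 adhesion and guidance genes 3 had a listed region, led by Kirrel3 at 15.4% ± 1.19 against 70.4% ± 3.68 and Kirrel2 at 18.1% ± 2.63 against 66.8% ± 5.58, adhesion molecules that sort olfactory axons. These are the regions with the largest loss in each role (SD, n = 3 each), so their losses are the upper end of each list, and the mutant and wild-type columns did not overlap in any of them.

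Genes of mature marrow cells and stroma, which a lin- fraction could still hold, gave 9 of 14 with a candidate region (64.3%, beside 68.8% of other protein-coding genes). A listed region was found at 6 of the 14 (42.9%, beside 45.0%). All 9 had 1 or more regions called lower by limma and none had one called higher. Of their 45 candidate regions 41 were called lower (91.1%, beside 93.5% of all candidate regions). All 6 genes with a listed region were in the T and NK cell or the stromal and endothelial part of the list. In the T cell genes the levels were 51.8% ± 3.99 against 79.5% ± 0.657 at Cd4 and 60.3% ± 3.56 against 83.2% ± 1.38 at Cd8a. In the stromal genes they were 12.8% ± 1.46 against 73.03% ± 3.63 at Col1a1 and 55.9% ± 8.83 against 84.98% ± 1.78 at Cxcl12 (SD, n = 3 each). These genes were again named by the largest loss. Each level is that of 1 listed region, of 8 at Col1a1 and of 2 at Cd4. The part of the cell mixture in the receptor regions was not tested.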

How the data were processed

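Methylation was sequenced in lin- bone marrow progenitors, in 12 samples. The deposited table holds, for each of 107115 candidate regions, 6 columns of levels, each a fraction from 0 to 1, here multiplied to percent. Each column name matches 2 libraries of different kits, and the sources used here do not say whether their reads were merged. The deposited list of hypomethylated regions gives the metilene q-value, a second adjusted p-value whose test is not named, the authors' group means as a fraction and their difference as a score. The file names give metilene as the caller of regions, and the build is mm10 per the submitters' processing notes. The sources used here name neither an aligner nor a methylation caller. Column means are printed, and in the 84 regions the authors' means lay at most 4 points away for the mutant and 5.72 for the wild type. The CpG numbers are those of the authors' list. The column levels come with no CpG number of their own, so a level need not average every CpG counted. No coverage was given, so no coverage minimum was applied.

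Every candidate region was tested in 1 fit with limma 3.58.1 in R 4.3.3 on percent levels (two-sided, Benjamini-Hochberg, threshold 0.05). The fit was also run on simulated levels in which both groups had the spread of the wild-type columns. The mutant columns spread more than that, so the simulation does not show how the fit behaves with their spread. Gene spans and windows came from RefSeq (GRCm38.p6, the assembly of mm10). Coordinates are printed as deposited: the first CpG lies 2 bases after the start and the last 1 base after the end. Summaries and plots were made in Python 3.11.15 with pandas 2.3.3, scipy 1.17.1 and matplotlib 3.10.9.

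Named regions were the extremes of loss (over all 84, at vomeronasal genes and among unlisted candidates), wild-type level, CpG number and mutant spread, those nearest to the limits of the rule, those of the genes with the most regions and of the largest cluster, those that reach a gene start window, and up to 2 genes a role of each list. Regions at Olfr78, Olfr544, Olfr279, Vmn1r5 and the second of Olfr286 were named after their values were seen. The members, gene lists and tests were chosen with earlier results of these data known. The alternatives tried are given with their effect further on.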

Additional observations from a re-analysis of the deposited data

How the results depend on the processing

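Alternatives left all 84 receptor regions called lower by limma in each of the fits run. Of all candidate regions, the share called lower ranged over the alternatives from 34.3%, with at least 20 points, to 95.4%, with the variance prior. The rule used this contrast, so nothing is read from the count of 84. The number called lower over all candidate regions, 100125, became 36772 when only differences of 20 points or more were counted, and lay between 95623 and 100046 without 1 column. The number called higher, 52, became 82 with a variance prior that follows the mean level, 16 at an adjusted p under 0.01 and 4 with at least 20 points, and lay between 30 and 63 without 1 column, with the lowest value without wild type 1. The median difference of receptor regions, -27.0 points, was -33.0 in the 15 with a metilene q under 0.05 and between -27.3 and -26.2 without 1 column. The mean mutant level of 51.7% was 41.0% in those 15 regions, 54.7% with the median over regions in place of the mean, and between 50.6% and 52.2% without 1 column. The number of regions, 84, fell to 50 at a distance of 1000 bases or less, to 15 with a q under 0.05 and to 26 with 15 or more CpGs, and rose to 106 at 10000 bases or less. The share of candidate regions at receptor genes that were listed was 49.5% in gene spans alone and 44.9% with 10 kb on each side. The main fit did not pair columns by replicate number. Deviations of same-numbered columns correlated at 0.0372, 0.00489 and 0.04998, and those of other pairs at -0.0507 to 0.0117. Wild type 1 and wild type 3 correlated best with the mutant column of their own number, and wild type 2 with mutant 1. Correlations this small cannot decide whether the columns were paired. With the number as a replicate block, 99903 candidate regions were called lower, 70 higher and all 84 receptor regions lower. The unknown depth leaves the counting error of each level unknown.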
